A study of Rattus norvegicus with 9 samples.

Results

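Npvf encodes the precursor of RFamide-related peptides, which inhibit gonadotropin release, and its level was followed in the hypothalamus of maturing female rats. Members were the probe sets whose platform annotation gives exactly the symbol Npvf, and there was 1 of 31042 on the array, without control probe sets. The gene was chosen with its values on these same arrays already known, so its levels and its differences between stages are given as a description, with no test. The study profiled normally developing females on Affymetrix rat arrays at 3 ages: juvenile at day 26 (controls, in the labels' words), early pubertal at day 29 and late pubertal at day 31. Every stage has 3 arrays, each of the hypothalamus from 1 rat according to the labels, so replicates are animals. They name no treatment, strain, dissection border, hour of collection or estrous state, and the stages differ in age as well as in maturation.

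Npvf is the mammalian counterpart of the avian gene for gonadotropin-inhibitory hormone. In rodents its neurons lie mainly in and around the dorsomedial hypothalamus, and their fibres reach the neurons of gonadotropin-releasing hormone (GnRH), whose pulses start gonadotropin secretion by the pituitary. The peptides end in arginine, phenylalanine and an amide group, and act mostly on Npffr1, a receptor coupled to inhibitory G proteins. In adult male rats stress raises Npvf expression, and in seasonal hamsters day length sets it.

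The rat gene lies on chromosome 4, from 81043128 to 81047045 in the GRCr8 build, and is protein-coding. Its promoter is printed as the sequence context of the only transcript described here, as RefSeq gives it at chr4:81046996-81047295 on the minus strand of GRCr8, from 250 bases before the annotated start to 50 bases after it. Capitals mark a TATA box and the homeobox core TAATTA.

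Npvf promoter: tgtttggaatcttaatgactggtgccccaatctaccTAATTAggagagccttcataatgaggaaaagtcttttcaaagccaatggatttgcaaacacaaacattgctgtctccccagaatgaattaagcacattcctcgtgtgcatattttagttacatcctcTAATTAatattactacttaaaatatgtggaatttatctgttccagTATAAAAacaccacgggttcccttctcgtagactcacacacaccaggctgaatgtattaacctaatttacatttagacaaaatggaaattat

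A match to TATAAAA began 42 bases before the annotated start, and TAATTA, which reads the same on both strands, occurred 2 times without overlapping it, beginning 214 and 87 bases before the start. Among 33469 rat promoters of the same length, 5.96% held TATAAAA on either strand and 5.36% held TAATTA. The sequence was 64.3% A and T, against a median of 48.3% over those promoters. The core AGAACA, which the glucocorticoid receptor can bind, had 0 matches on either strand of this window and occurred in 20.7% of promoters. The E-box CACGTG (6.42% of promoters) and TGANTCA, read by AP-1 factors (7.33%), also had 0 matches. These are counts of letters in a window, not of binding sites.

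The deposited values are MAS5 signals, a brightness per probe set on a linear scale, and were not at a common level between arrays: array medians ran from 79.8 in early pubertal replicate 10 to 122 in late pubertal replicate 20. Values were therefore also taken as log2(signal + 16) and quantile-normalized, and arrays then correlated with each other at r = 0.956 to 0.983 across tested probe sets. For the beta-actin control, signal at the 3′ end over that at the 5′ end, a measure of RNA degradation, lay between 2.14 and 3.24. Of 12 markers of hypothalamic neurons, 9 passed the filter on dim probe sets, among them Oxt, Avp, Hcrt, Pmch and the transcription factor Nkx2-1, while Sim1, Otp and Gnrh1 lay below it. With 3 arrays per stage, their number sets how precise any comparison can be.

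Npvf was low in all 3 juvenile animals, high in all 3 late pubertal animals and widely spread in early pubertal animals. The deposited signal was 371, 260 and 329 in juvenile replicates 1, 2 and 3. Early pubertal animals had 455 in replicate 7, 254 in replicate 8 and 573 in replicate 10. Late pubertal animals had 414 in replicate 12, 489 in replicate 14 and 546 in replicate 20. Early pubertal replicate 8 thus had the lowest deposited signal of the 9 arrays and early pubertal replicate 10 the highest, while the late pubertal arrays all stood above the juvenile ones. Juvenile animals averaged a signal of 320.03 ± 56.1 (SD, n = 3), early pubertal animals 427 ± 162 and late pubertal animals 483 ± 66.2.

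Normalization kept the late pubertal arrays above the juvenile ones and early pubertal replicate 10 highest. It changed the order of arrays within the juvenile and late pubertal stages and at the bottom. On the normalized log2 scale the levels of the same animals were 8.38, 8.03 and 8.44 at the juvenile stage, then 8.90, 8.27 and 9.45 at the early and 8.78, 8.97 and 8.91 at the late pubertal stage. The lowest array was now juvenile replicate 2, and early pubertal replicate 8 fell among the juvenile arrays. Juvenile animals averaged a log2 level of 8.28 ± 0.22 (SD, n = 3), early pubertal animals 8.87 ± 0.59 and late pubertal animals 8.88 ± 0.09. In this order the early and late pubertal means did not differ beyond their spread, and the distance between the early pubertal and juvenile means, 0.59, was no larger than the early pubertal SD. Fewer cells that make a transcript and less RNA per cell cannot be told apart in whole-tissue arrays.

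**Figure D1:**
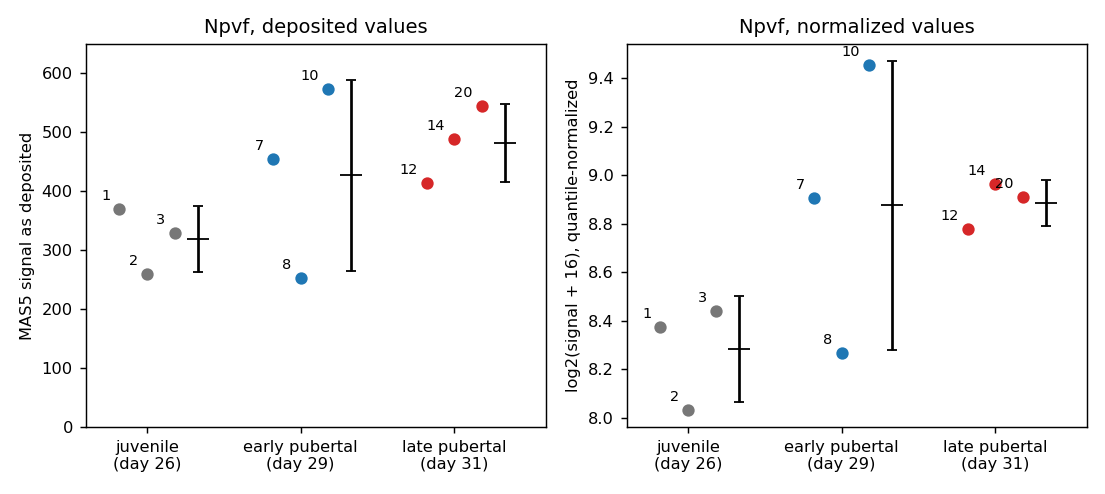
Npvf in each animal by stage, as the deposited MAS5 signal (left, linear axis from 0) and as quantile-normalized log2(signal + 16) (right). Each point is 1 array with its replicate number, and the bar beside it is the stage mean with its SD (n = 3); late pubertal points lie between 414 and 546 on the left, above all juvenile points, and early pubertal points span 254 to 573.

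Between early pubertal and juvenile animals the mean log2 level differed by 0.59 ± 0.23 (SE, n = 3 per stage), a 1.51-fold higher level in early pubertal animals. This SE, like the others of log2 differences given here, is limma's, which draws each probe set's variance towards that of others of like level; the pooled SD of Npvf alone gives an SE of 0.30 for each of its 3 differences. Early pubertal arrays were higher in 7 of 9 pairs of arrays, and the groups overlapped. The size of this difference rested on individual animals: it was 0.30 without early pubertal replicate 10 and 0.90 without early pubertal replicate 8. On the deposited level it was 0.34, beside a median of −0.24 over all tested probe sets, so that Npvf stood 0.58 above that median.

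Between late pubertal and juvenile animals the log2 difference was 0.60 ± 0.23 (SE, n = 3 per stage), a 1.52-fold higher level in late pubertal animals. Late pubertal arrays were higher in 9 of 9 pairs. Over all tested probe sets 5.9% had late pubertal arrays above all juvenile ones, a share from which nothing is read here because these values chose the gene. This difference ran from 0.48 without juvenile replicate 2 to 0.68 without juvenile replicate 3, and was 0.58 on the deposited level, where the groups did not overlap either.

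Between late and early pubertal animals the log2 difference was 0.01 ± 0.23 (SE, n = 3 per stage), with late pubertal arrays higher in 5 of 9 pairs. It was −0.30 without early pubertal replicate 8 and 0.30 without early pubertal replicate 10, so its sign depended on which early pubertal animals were included. The comparisons with juvenile animals share the juvenile arrays, and the difference between late and early pubertal animals shares arrays with each of them.

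**Figure D2:**
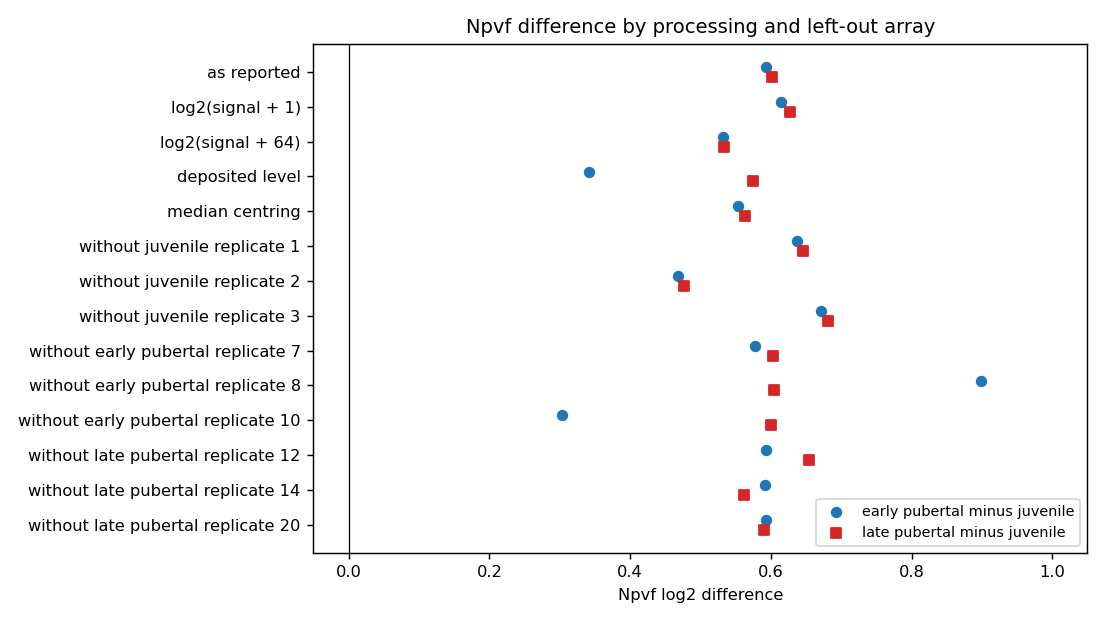
The Npvf log2 difference from juvenile animals (x axis) for early pubertal (circles) and late pubertal animals (squares), as reported and under each other constant, normalization or left-out array (y axis). Every point lies above 0; the early pubertal points run from 0.30 to 0.90 and the late pubertal points from 0.48 to 0.68.

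The spread of Npvf between animals of a stage was larger than that of most tested probe sets. Its pooled within-stage SD was 0.37 on the log2 scale, against a median of 0.17 over the 18625 tested probe sets and of 0.15 over the 4151 whose mean log2 level lay within 0.5 of that of Npvf. Of all tested probe sets 93% had a smaller SD. The SD of the log2 level was 0.22 over juvenile, 0.59 over early pubertal and 0.09 over late pubertal arrays, so most of the spread lay among the early pubertal animals. Differences between stage means made up 46.6% of the sum of squares of Npvf over the 9 arrays, against a median of 21.03% over tested probe sets. Nothing is read from this share or from the place of the SD among probe sets, because these values chose the gene.

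The other RFamide precursors and receptors that passed the signal filter overlapped between stages. Npff encodes neuropeptide FF and Prlh prolactin-releasing peptide, both of the RFamide class. The Npff signal was 106, 98.8 and 82.6 in juvenile animals, 108, 75.5 and 54.2 in early pubertal animals and 113, 85.5 and 87.3 in late pubertal animals. Its log2 difference from juvenile animals was −0.05 ± 0.19 in early and −0.02 ± 0.19 in late pubertal animals (SE, n = 3 per stage), with all groups overlapping. The Prlh signal was 98.7, 144 and 193 in juvenile animals, 208, 175 and 92.2 in early pubertal animals and 161, 146 and 223 in late pubertal animals. Its log2 difference from juvenile animals was 0.32 ± 0.25 in early and 0.26 ± 0.25 in late pubertal animals. On early pubertal replicate 10, the dimmest array and the one where Npvf was highest, both Npff and Prlh had their lowest deposited signal of the 9 arrays. Kiss1, the kisspeptin gene, and Qrfp are not analysed here.

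Npffr1, the main receptor for Npvf peptides, was dim, with signals of 56.4, 60.6 and 91.5 in juvenile animals, 79.8, 71.5 and 35.3 in early pubertal animals and 109, 69.3 and 43.4 in late pubertal animals. The stages overlapped throughout. Its log2 difference from juvenile animals was 0.04 ± 0.31 in early and 0.01 ± 0.31 in late pubertal animals (SE, n = 3 per stage). Npffr2, which prefers neuropeptide FF, differed by −0.01 ± 0.25 in early and −0.20 ± 0.25 in late pubertal animals. The prolactin-releasing peptide receptor Prlhr and the kisspeptin receptor Kiss1r lay below the signal filter, and Qrfpr is not analysed here.

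Npvf was then set beside a list of 59 other neuropeptide precursors, of which 48 had a named probe set and 31 were tested by their brightest one. With limma and Benjamini-Hochberg adjustment, 0 of the 35 tested probe sets of these genes passed in any comparison, as did 0% of all 18625 tested probe sets. The lowest adjusted p among the 35 was 0.994 for early pubertal against juvenile animals and 0.914 for late against early pubertal animals. At an unadjusted limma p under 0.05, 2 probe sets were higher and 1 lower in early pubertal than in juvenile animals, against 1.92% and 2.54% of all tested probe sets. In late pubertal against juvenile animals 1 was higher and 0 lower, against 2.23% and 1.92% of all. In late against early pubertal animals 0 were higher and 2 lower, against 2.94% and 2.27% of all. The median log2 difference of the 31 genes was 0.13 in early and −0.01 in late pubertal animals relative to juvenile ones, with 19 and 15 of 31 above 0, against 49.6% of all tested probe sets in both comparisons. The same median over all tested probe sets was −0.00142 and −0.00148.

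None of the 31 precursors had a larger log2 difference than Npvf on its brightest probe set, either in early or in late pubertal animals against juvenile ones, a place from which nothing is read because these values chose the gene. A dimmer probe set of Calca, the gene of calcitonin and its related peptide, differed by 0.70 ± 0.36 in early pubertal animals while its brightest one differed by −0.28 ± 0.22. Without early pubertal replicate 10, 7 of 31 precursors had a larger early pubertal difference than Npvf. Of the 31 genes, 4 had a larger pooled within-stage SD than Npvf, and their median SD was 0.21 on the log2 scale.

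**Figure D3:**
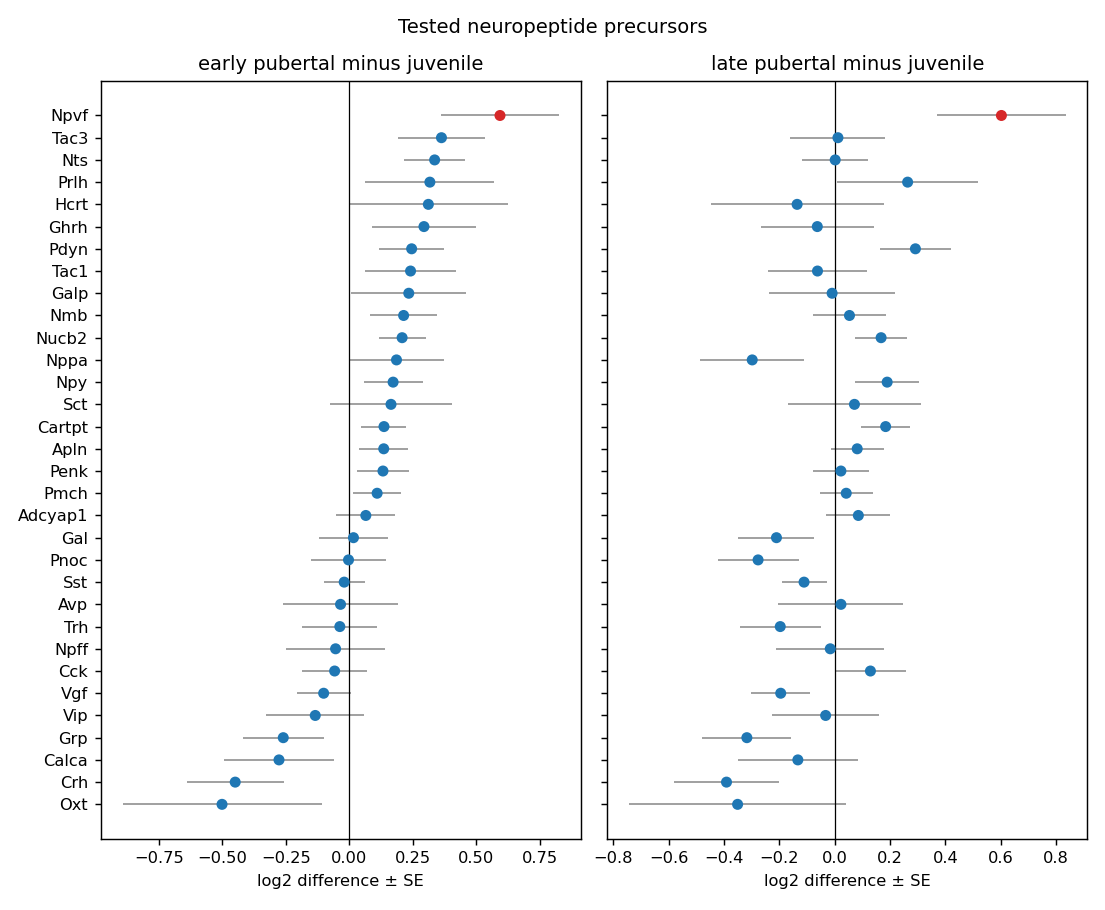
Log2 differences with their SE (x axis) for Npvf (red) and the 31 other tested neuropeptide precursors (blue), for early pubertal minus juvenile animals (left) and late pubertal minus juvenile animals (right). Genes run down the page by their early pubertal difference; Npvf is at the top at 0.59 and 0.60, and Nts and Tac3 stand next to it on the left and near 0 on the right.

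The precursors nearest to the threshold took several courses over the stages. Nts, which encodes neurotensin, stood 0.34 ± 0.12 (SE, n = 3 per stage) higher on the log2 scale in early pubertal than in juvenile animals and differed by 0.00179 ± 0.12 in late pubertal animals. Tac3, which encodes neurokinin B, a stimulator of GnRH release, differed by 0.36 ± 0.17 in early and 0.01 ± 0.17 in late pubertal animals. Nucb2, the precursor of nesfatin, differed by 0.21 ± 0.09 and 0.17 ± 0.09, and Pdyn, the dynorphin precursor, by 0.24 ± 0.13 and 0.29 ± 0.13. Crh, which encodes corticotropin-releasing hormone, had differences of −0.45 ± 0.19 in early and −0.39 ± 0.19 in late pubertal animals.

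Late pubertal animals set the other named values. Cartpt, an appetite-suppressing peptide precursor, differed from juvenile animals by 0.18 ± 0.09, and Grp, the gastrin-releasing peptide gene, by −0.32 ± 0.16 (log2 ± SE, n = 3 per stage). Late minus early pubertal log2 differences were −0.33 ± 0.12 for Nts, −0.48 ± 0.19 for the natriuretic peptide gene Nppa, −0.35 ± 0.17 for Tac3 and −0.27 ± 0.15 for Pnoc, the nociceptin precursor. The mean of Nts was thus highest at the early pubertal stage, whereas the late pubertal mean of Npvf stood at its early pubertal one; this contrast between the genes was not tested. Early pubertal and juvenile arrays did not overlap for 4 higher precursors (Nmb, Nts, Nucb2, Tac3) and 1 lower (Crh) of 31, where 3.86% and 4.43% of all tested probe sets were so separated. Late pubertal and juvenile arrays did not overlap for 3 higher (Cartpt, Nucb2, Pdyn) and 2 lower (Grp, Pnoc), against 5.9% and 5.52% of all. Late and early pubertal arrays did not overlap for 1 higher (Cck) and 4 lower (Nmb, Nppa, Nts, Tac3), against 5.97% and 5.37% of all.

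Peptide genes of nearby neurons varied from animal to animal, with layouts of their own. Hcrt, the orexin gene of lateral hypothalamic neurons, had signals of 2070, 820 and 1095 in juvenile animals, 1637, 1696 and 762 in early pubertal animals and 1121, 1333 and 877 in late pubertal animals. Its lowest deposited signal was on early pubertal replicate 10, the dimmest array and the one where Npvf was highest. A low deposited signal there partly reflects the level of the array. On the normalized scale Hcrt and Npvf correlated across arrays at only r = −0.196. Pmch, the melanin-concentrating hormone gene of the same area, differed from juvenile animals by 0.11 ± 0.09 in early and 0.04 ± 0.09 in late pubertal animals on the log2 scale (SE, n = 3 per stage). Oxt, the oxytocin gene of the paraventricular and supraoptic nuclei, had its lowest signal, 1151, on early pubertal replicate 8, where Npvf was also low, and between 2708 and 5478 on the other 8 arrays. Avp, the vasopressin gene of the same nuclei, was lowest on that array too, at 2021, against 2867 to 4602 elsewhere. The log2 difference of Oxt from juvenile animals was −0.50 ± 0.39 in early and −0.35 ± 0.39 in late pubertal animals, and that of Avp was −0.03 ± 0.23 and 0.02 ± 0.23.

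Over the 9 arrays Npvf went most closely with Npy among the 31 precursors, with Pearson r = 0.895 and Spearman rho = 0.967. Npy encodes neuropeptide Y, an appetite-stimulating peptide of the arcuate nucleus, and differed from juvenile animals by 0.17 ± 0.12 in early and 0.19 ± 0.12 in late pubertal animals on the log2 scale. Nucb2 followed at r = 0.793 (rho = 0.850) and Pdyn at r = 0.694 (rho = 0.750). Crh was the most opposed at r = −0.722 (rho = −0.700). The median r of the 31 precursors with Npvf was −0.0297. These are descriptions over 9 arrays that share the stage differences, the array level and the dissection.

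A list of 29 receptors, output hormones and upstream regulators around Npvf had 23 genes with a named probe set, 15 of them tested by their brightest one. With limma, 0 of 18 tested probe sets passed after adjustment in any comparison. At an unadjusted p under 0.05, 0 reached it in either comparison with juvenile animals and 2 were higher in late than in early pubertal animals, against 2.94% of all tested probe sets. The first was Dio3, the enzyme that inactivates thyroid hormone, with signals of 115, 138 and 91.04 in late pubertal animals, against 54.4, 27.6 and 73.3 in early pubertal animals. Its late minus early pubertal log2 difference was 0.80 ± 0.32 (SE, n = 3 per stage), and its late pubertal difference from juvenile animals was 0.68 ± 0.32. On the normalized scale the late and early pubertal arrays of Dio3 overlapped, unlike the deposited signals. The second was the progesterone receptor Pgr, with a late minus early pubertal log2 difference of 0.45 ± 0.21 and late pubertal signals of 117, 90.2 and 127, against 76.1, 58.5 and 57.6 in early pubertal animals. Both genes are dim on these arrays.

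The glucocorticoid receptor gene Nr3c1 differed from juvenile animals by −0.18 ± 0.09 in early and −0.07 ± 0.09 in late pubertal animals (log2 ± SE, n = 3 per stage). Gnrh1, the estrogen receptor genes Esr1 and Esr2, and Dio2, which activates thyroid hormone, lay below the signal filter. The brightest Gnrh1 probe set had signals of 54.6 to 69.3 in juvenile, 25.2 to 61.3 in early and 46.7 to 62.6 in late pubertal animals. Of 8 listed genes of peptide precursor processing and its control 7 were tested, and 0 passed after adjustment. The only unadjusted limma p under 0.05 was that of Pcsk1n, an inhibitor of prohormone convertase, which differed by 0.19 ± 0.09 in early pubertal animals, where 1.92% of all tested probe sets reached it as higher. Qpct, which forms the blocked first residue of some peptides, had juvenile arrays above all others on the normalized scale, with log2 differences of −0.14 ± 0.08 in early and −0.13 ± 0.08 in late pubertal animals. Of all tested probe sets, 4.43% had early and 5.52% had late pubertal arrays below all juvenile ones. Pam, the enzyme that forms the terminal amide of these peptides, differed by 0.13 ± 0.06 in early and 0.11 ± 0.06 in late pubertal animals.

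Markers of the dorsomedial hypothalamus and the nuclei around it were set beside Npvf. Of 6 listed genes 5 were tested, and 0 reached an unadjusted limma p under 0.05 in any comparison, as did 1.92% to 2.94% of all tested probe sets per comparison and direction, so that a count of 0 among 5 genes is near the background. Ppp1r17, a marker of dorsomedial neurons in mice, differed by −0.03 ± 0.12 in early and −0.06 ± 0.12 in late pubertal animals relative to juvenile ones (log2 ± SE, n = 3 per stage). Nr5a1, of the ventromedial nucleus, differed by 0.15 ± 0.20 and 0.35 ± 0.20, with late pubertal arrays above all juvenile ones, and the histamine enzyme Hdc of the tuberomammillary nucleus by −0.06 ± 0.14 and 0.05 ± 0.14. Late pubertal arrays lay above all juvenile ones for 5.9% of all tested probe sets. The mean log2 deviation of the 5 genes from their average was −0.07 on early pubertal replicate 10 and 0.17 on early pubertal replicate 8, where Npvf deviated by 0.77 and −0.41. On juvenile replicate 2 both were low, at −0.21 for the list and −0.65 for Npvf.

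Markers of leptomeninges, the fibroblast-rich covering of the brain, were high on the same array as Npvf. All 10 listed genes were tested, and the 10 were higher in early and in late pubertal than in juvenile animals by their mean log2 values, with median differences of 0.19 and 0.34, where 49.6% of all tested probe sets lay above 0 in each comparison. None passed after limma adjustment. At an unadjusted limma p under 0.05, 3 of their 15 tested probe sets were higher in early pubertal and 5 in late pubertal than in juvenile animals, and 0 were lower, against 1.92% and 2.23% of all as higher. Late pubertal arrays lay above all juvenile ones for 4 of the 10 genes (Mgp, Fmod, Slc22a6, Islr), against 5.9% of all. Their mean log2 deviation ran from −0.29 to −0.05 in juvenile animals, from −0.16 to 0.31 in early pubertal animals and from 0.06 to 0.26 in late pubertal animals. It was highest on early pubertal replicate 10, as was Npvf. Their summed deposited signal was 7227 to 9509 in juvenile, 6606 to 9532 in early and 8698 to 11029 in late pubertal animals. Their r with Npvf ran from 0.369 to 0.833, with a median of 0.629. On early pubertal replicate 10, 6 markers of cortex and hippocampus, of which 2 passed the signal filter, deviated by −0.35. Markers of thalamus deviated most, by 0.33, on juvenile replicate 2, where normalized Npvf was lowest. The part of these lists in the Npvf result was not tested.

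Markers of astrocytes and of neurons in general also differed between stages by their mean values, and 0 of either list passed after limma adjustment. At an unadjusted limma p under 0.05, 2 of 14 astrocyte probe sets were higher in early pubertal and 3 in late pubertal than in juvenile animals, against 1.92% and 2.23% of all tested probe sets. They were those of Aldh1l1, a folate enzyme, and Gfap, an intermediate filament protein, joined in late pubertal animals by the connexin Gjb6. Aldh1l1 had log2 differences of 0.33 ± 0.11 in early and 0.31 ± 0.11 in late pubertal animals, with juvenile arrays below all others, and r = 0.865 with Npvf. Of all tested probe sets, 3.86% had early and 5.9% had late pubertal arrays above all juvenile ones. For Gfap the differences were 0.16 ± 0.07 and 0.17 ± 0.07, with r = 0.806. The other 6 of 8 astrocyte genes had lower r, down to −0.364, and the list median was 0.255. Of the 8 genes 6 were above 0 in each comparison with juvenile animals, against 49.6% of all tested probe sets. Their median log2 difference was 0.15 in early and 0.06 in late pubertal animals.

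Of 8 neuron genes, 3 were above 0 in early pubertal and 0 in late pubertal relative to juvenile animals, against 49.6% of all tested probe sets, with median log2 differences of −0.06 and −0.14. At an unadjusted p under 0.05, 1 of 12 probe sets was lower in early pubertal animals (Rbfox3, −0.20 ± 0.08) and 2 in late pubertal animals, against 2.54% and 1.92% of all. The late pubertal ones were the synaptic vesicle genes Syt1, at −0.42 ± 0.15, and Syn1, at −0.23 ± 0.09. The median r of the 8 genes with Npvf was −0.464. The mean log2 deviation of the neuron list was lowest on early pubertal replicate 10, at −0.13, where Npvf was highest, and nearly as low on juvenile replicate 2, where Npvf was lowest. The part of either list in the Npvf result was not tested.

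The summed signal of markers of pituitary, which lies below the hypothalamus, was highest on juvenile replicate 2, the lowest array for normalized Npvf. The summed signal of the 8 genes was 3196 there, 1619 and 1950 in the other juvenile animals, between 1932 and 2291 in early pubertal animals and between 1684 and 2582 in late pubertal animals. Most of that sum was Cga, at 2345 on juvenile replicate 2 and at 1213 and 1595 in the other juvenile animals. The markers did not move together: Lhb was 135 on juvenile replicate 2, against 166 and 143 in the other juvenile animals. Fshb was 59.7 there, against 68.8 and 74.4. Tshb, the thyrotropin subunit, had a signal of 597 on juvenile replicate 2 and at most 208 elsewhere, while Prl, Pomc and Gh1 lay below the signal filter. Their part was not tested, and without juvenile replicate 2 the Npvf log2 difference was 0.47 in early and 0.48 in late pubertal animals. Markers of thalamus summed to 1799 to 2093 in juvenile, 1306 to 1471 in early and 1716 to 1878 in late pubertal animals. At an unadjusted limma p under 0.05, 1 of their 8 tested probe sets was lower in early pubertal than in juvenile animals, 1 higher in late pubertal than in juvenile animals and 3 higher in late than in early pubertal animals, against 2.54%, 2.23% and 2.94% of all, and their part was not tested either.

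**Figure D4:**
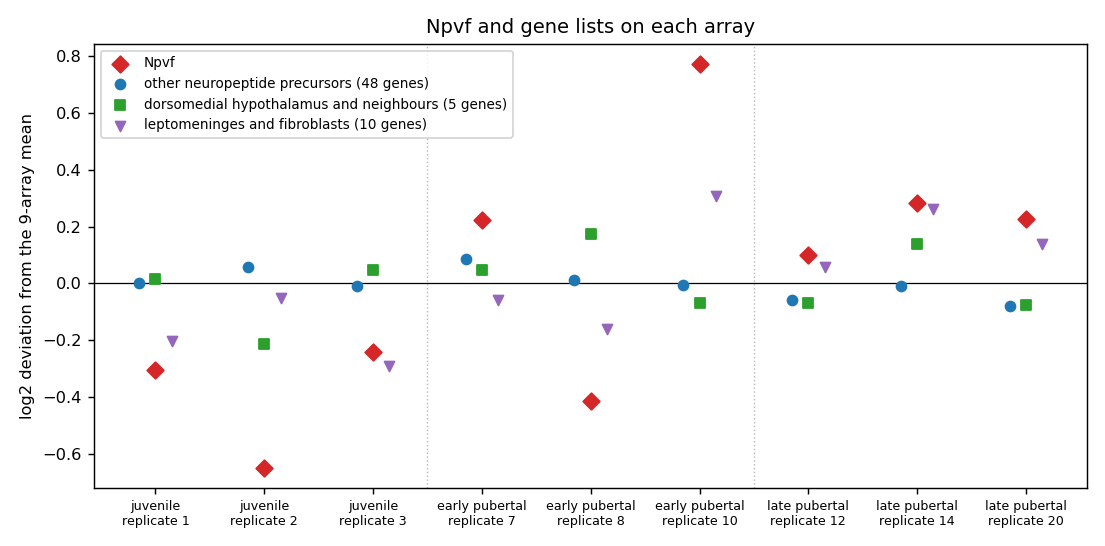
Log2 deviation from the 9-array mean (y axis) on each array (x axis, juvenile, early pubertal and late pubertal from left to right) of Npvf and of 3 gene lists, each the mean over its genes less that of all tested probe sets. Npvf ranges from −0.65 to 0.77, and the leptomeningeal list is highest on the same array as Npvf at 0.31. The mean over the other precursors stays between −0.08 and 0.08. Single precursors vary more, and 4 of the 31 tested ones had a larger pooled within-stage SD than Npvf.

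The genes whose pattern was most like that of Npvf were sought among 14267 other tested probe sets with 1 gene symbol. The 5 with the highest Pearson r over the 9 arrays were Rpl23, a ribosomal protein (r = 0.966, rho = 0.917), the kinase Nek9 (r = 0.961, rho = 0.983), Fastkd2, which acts on mitochondrial RNA (r = 0.944, rho = 0.983), the protein disulfide isomerase Txndc5 (r = 0.930, rho = 0.833) and Ogn, the proteoglycan osteoglycin (r = 0.927, rho = 0.883). Without juvenile replicate 2 and early pubertal replicate 10, the arrays farthest from the median of Npvf, r lay between 0.87 and 0.90. On the deposited level r was 0.623 for Rpl23, 0.930 for Nek9, 0.829 for Fastkd2, 0.883 for Txndc5 and 0.883 for Ogn.

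These likenesses were not shared by all probe sets of a gene, and the log2 differences given here were smaller than those of Npvf. The other tested Nek9 probe sets had r = 0.464, 0.0157 and 0.476 with Npvf, and the other 3 of Ogn had r from 0.594 to 0.805. Ogn is also on the leptomeningeal list above. Its log2 difference from juvenile animals was 0.34 ± 0.13 in early and 0.41 ± 0.13 in late pubertal animals (SE, n = 3 per stage), while that of Rpl23 was 0.07 ± 0.04 in both. None of the 5 passed the limma test after adjustment in any comparison. Only 12 of the 14267, 0.0841%, had r above 0.9.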

How the data were processed

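Each of the 9 samples is 1 single-channel Affymetrix rat array of biotin-labelled cRNA, made by in vitro transcription from oligo-dT-primed cDNA, per the labels' protocols. The authors computed the deposited intensities, 1 linear signal for each probe set, with MAS5, per the submitters' processing notes. The MAS5 version, scaling target and detection calls were not stated. After removal of 57 controls, 31042 probe sets remained: 20826 with 1 annotated symbol, 436 with several and 9780 unnamed here.

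Intensities were taken as log2(signal + 16), quantile-normalized and filtered at the 40th percentile of mean level, leaving 18625 probe sets. Fold changes are on this log scale, which shrinks those of dim probe sets. All 9 arrays were fitted with 1 mean per stage in limma 3.58.1 (R 4.3.3, eBayes with intensity trend, two-sided, Benjamini-Hochberg over tested probe sets, threshold 0.05), and the fit was tested on simulated data. The labels give no batch or pairing. The gene, the lists and the tests were chosen with earlier results of these data known. Besides Npvf, named genes were RFamide genes, chosen pathway and neighbouring genes, list members with a limma p under 0.05, the 4 precursors with the smallest p per comparison and the 5 genes with the highest r. Where a gene had several probe sets, the brightest stands for it. Other constants, normalizations, filters, priors, thresholds and array subsets were tried.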

Additional observations from a re-analysis of the deposited data

How the results depend on the processing

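The Npvf log2 differences moved by less than the within-stage SD of 0.37 under all 13 alternatives tried for each. For left-out arrays this limit decides nothing, because dropping 1 array can hardly shift a stage mean by more than that SD. Among other constants and normalizations, 2 of the differences moved most on the deposited level. They were 0.34 there for early pubertal minus juvenile and 0.23 for late minus early pubertal animals. The late pubertal minus juvenile difference was 0.58 on the deposited level, and its largest move was to 0.53 with log2(signal + 64). Leaving out each array in turn gave 0.30 to 0.90 for early pubertal minus juvenile, 0.48 to 0.68 for late pubertal minus juvenile and −0.30 to 0.30 for late minus early pubertal animals. The gene has a single probe set, so no other could be tried. The count of neuropeptide precursors past the threshold was 0 under all 19 alternatives in each comparison. The count of all probe sets past it was 0, except on the deposited level, where limma called 10 for early pubertal minus juvenile (1 higher, 9 lower), 1 for late pubertal minus juvenile and 21, all higher, for late minus early pubertal animals, beside median log2 differences of −0.24, −0.02 and 0.22 over all tested probe sets. Leaving out 1 array gave 0 to 1 for late pubertal minus juvenile, the 1 without juvenile replicate 2. No paired analysis was possible because the stages share no replicate numbers. Dim probe sets, among them Npffr1, Dio3 and Gnrh1, lie near background and no detection calls were used.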

Other observations

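A dimmer probe set of the leptin receptor gene Lepr, chosen here after its value was seen, had r = 0.925 with Npvf over the 9 arrays, while the brightest Lepr probe set had r = 0.240. Saal1 had the most opposed pattern among named probe sets, with r = −0.988 and rho = −0.983, and still −0.988 without the 2 arrays farthest from the median of Npvf, but −0.578 on the deposited level. Its signal was 123 to 153 in juvenile, 71.4 to 115 in early pubertal and 106 to 133 in late pubertal animals. It too was chosen after its value was seen.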
